A study of Homo sapiens with 6 samples.

Results

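The homeodomain-interacting protein kinases HIPK1, HIPK2 and HIPK3 were followed in Hep3B, a human liver cancer cell line, on Affymetrix HG-U133 Plus 2 arrays. Every probe set whose platform gene symbol is HIPK1, HIPK2 or HIPK3 was taken, which gave 3 of the 19775 genes with a symbol of their own, measured by 18 of the 54675 probe sets on the array: 10 for HIPK2, 4 for HIPK1 and 4 for HIPK3. The genes were chosen because HIPK2, which has many probe sets, was lower in the miR-17 TuD arrays. The differences of all 3 genes between the groups are therefore a description. Where their probe sets are counted as past a threshold, the count stands beside that of all probe sets and nothing is read from it.

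The miR-17 TuD group (3 arrays) carries a lentiviral tough decoy, which is an RNA that offers sites for microRNAs to bind, directed at the miR-17 family. The NC TuD group (3 arrays) carries a control decoy. Both groups were made from the same line by lentiviral transduction (multiplicity of infection 5, for 48 hours, 10.0 μg/mL polybrene), selection in 1.0 μg/mL puromycin, and pooling of the resistant colonies after 2 weeks, so each group is 1 pooled stable line. Whether the 3 samples within a group were separate cultures is not stated, so p-values measure a spread that may be technical. Sample descriptions also carry a code with 72HR in all 6 samples, PLUSDOX in the miR-17 TuD samples and NODOX in the NC TuD samples. What it stands for is not stated, and it cannot be told apart from the decoy.

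HIPK proteins are mainly nuclear serine/threonine kinases related to the DYRK kinases. HIPK2 is best known as a DNA damage kinase that phosphorylates transcription regulators such as the corepressor CtBP, and it is held at a low protein level in unstressed cells by ubiquitin ligases such as SIAH1, SIAH2, WSB1 and MDM2. HIPK1 binds homeodomain proteins, DAXX and MYB, and HIPK3 has been linked to FADD. MicroRNAs of the miR-17 family repress mRNAs that pair with their seed.

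The inhibited family is shown first because the groups differ in the decoy against it. The sequences below are the mature 5p strands of 6 family members in RefSeq (GRCh38.p14), with bases 2 to 8, the seed, in capitals. All 6 share the seed AAAGUGC. The labels name the family and not which members the decoy binds.
hsa-miR-17-5p: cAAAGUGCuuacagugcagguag
hsa-miR-20a-5p: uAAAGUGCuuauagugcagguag
hsa-miR-20b-5p: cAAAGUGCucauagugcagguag
hsa-miR-93-5p: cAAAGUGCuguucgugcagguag
hsa-miR-106a-5p: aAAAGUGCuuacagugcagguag
hsa-miR-106b-5p: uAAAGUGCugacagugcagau

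The strand of miR-17 lies at chr13:91350618-91350640 and that of miR-20a at chr13:91351072-91351094, both on the plus strand. Those of miR-93 (chr7:100093815-100093837) and miR-106b (chr7:100094043-100094063) lie on the minus strand of chromosome 7, and those of miR-20b (chr X, 134169850 to 134169872) and miR-106a (chr X, 134170244 to 134170266) on the minus strand of chromosome X.

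All levels are log2 values as deposited. A negative difference means a lower log2 level with miR-17 TuD than with NC TuD. A level of 2.12 is the lowest value on the arrays, shared by 34.9% to 35.4% of probe sets on each, and a probe set near it says little about its gene. Levels of different probe sets depend on their probes and are not compared with each other. Probe sets with a mean over the 6 arrays above 2.14, the 40th percentile of such means, were tested, 32768 in all. Of the 18 HIPK probe sets 13 passed this filter, 7 of HIPK2, 3 of HIPK1 and 3 of HIPK3. The other 5 stayed at or next to the lowest value: 224066_s_at, 240294_at and 224016_at of HIPK2 at 2.12 to 2.13, and 1552515_at of HIPK1 and 213697_at of HIPK3 at 2.12 on every array. A name ending in s_at or x_at marks a set whose probes may also match other transcripts. In bulk RNA, fewer cells that express a gene and less RNA of it per cell cannot be told apart.

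Correlation over probe sets was 0.9994 to 0.9997 between arrays of the same group and 0.9988 to 0.9991 between the groups. Hepatocyte markers were all measured (10 of 10, mean level 12.51 to 12.60 in the miR-17 TuD arrays and 13.15 to 13.20 in the NC TuD arrays), and 9 of 10 fell in limma with Benjamini-Hochberg adjustment, against 4.6% of genes called lower. Among markers of other cell types, CDH5, VWF, KDR, PTPRC, CD3E, CSF1R, COL3A1 and DCN did not pass the filter, PECAM1 stood at 2.43 on every array, and 3 of 4 measured stromal markers (COL1A1, COL1A2 and LUM) had mean levels above 7 in both groups. The stromal list ranged from a mean of 8.99 to 9.25 in the miR-17 TuD arrays and 8.91 to 8.93 in the NC TuD arrays. The endothelial list (2 of 5 measured) ranged from 3.11 to 3.57 and 3.06 to 3.11, and the leukocyte list (2 of 6 measured) from 5.39 to 5.51 and 5.18 to 5.24, where LYZ rose by 0.59 (adjusted p = 0.0193 in limma). The part of these shifts in the HIPK differences was not tested. The 3′ minus 5′ difference of ACTB control probe sets was 0.679 to 0.684 in the miR-17 TuD arrays and 0.692 to 0.712 in the NC TuD arrays (exact permutation p = 0.1, 2-sided, the smallest that 3 against 3 arrays allow), and that of GAPDH overlapped between groups (exact permutation p = 0.8).

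**Figure D1:**
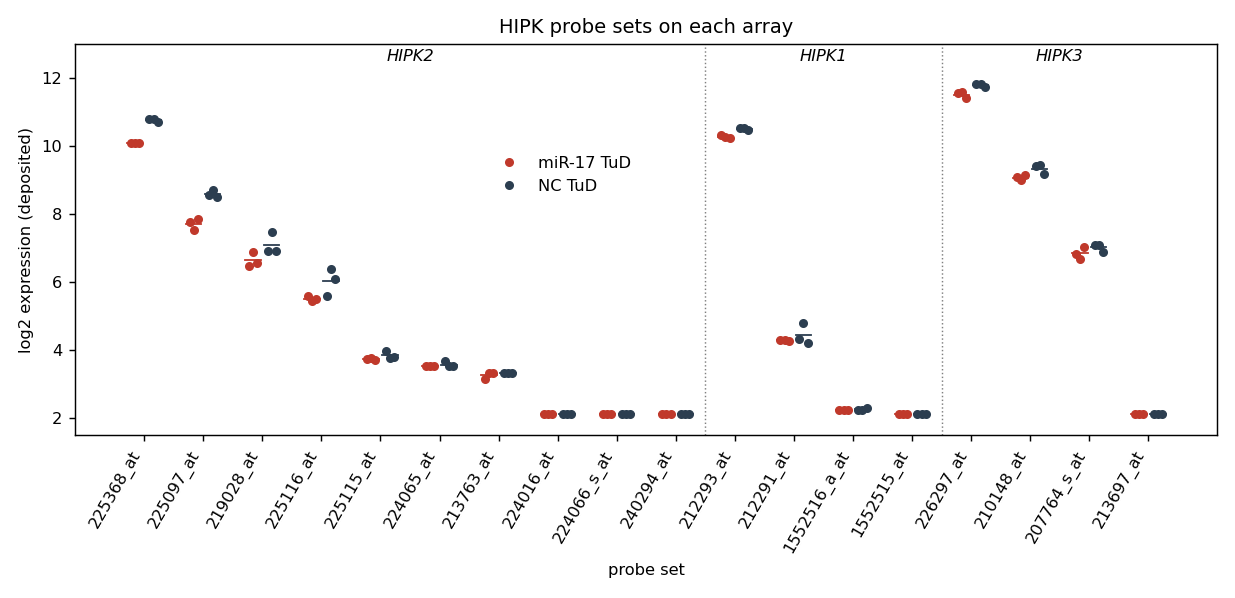
Log2 expression of all 18 HIPK probe sets (x axis) on each array (points; short lines are group means of 3 arrays), with miR-17 TuD in red and NC TuD in dark blue. The groups are 0.62 and 0.66 apart on the HIPK2 sets 225368_at and 225097_at, while 5 sets of the 3 genes lie at the lowest value.

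HIPK2 was lower in the miR-17 TuD arrays on each of its 4 probe sets with a mean level of 5 or more. At 225368_at, the 3 miR-17 TuD arrays read 10.08, 10.09 and 10.08 and the 3 NC TuD arrays 10.81, 10.78 and 10.71. The group means were 10.08 ± 0.004 and 10.76 ± 0.052 (SD, n = 3), a difference of -0.68 (SE 0.028), or 1.60-fold lower. The groups were apart by 0.62, many times the spread within either of them. At 225097_at the values were 7.75, 7.54 and 7.84 against 8.56, 8.70 and 8.50. This gave 7.71 ± 0.16 against 8.59 ± 0.099, a difference of -0.88 (SE 0.10), or 1.84-fold lower. It was the largest difference among the HIPK sets, with all 3 miR-17 TuD arrays below all 3 NC TuD arrays by at least 0.66.

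The other HIPK2 sets with levels above 5 leaned the same way with more scatter. 219028_at, designed on a RefSeq HIPK2 mRNA, read 6.48, 6.90 and 6.56 against 6.91, 7.48 and 6.92 (difference -0.45, SE 0.21). 225116_at read 5.59, 5.43 and 5.50 against 5.61, 6.39 and 6.10 (difference -0.53, SE 0.22). Their groups did not overlap, but only by 0.0088 and 0.014, and NC TuD replicate 2 was the highest array on both. Without that array the differences were -0.27 at 219028_at and -0.35 at 225116_at, while 225368_at and 225097_at stood at -0.67 and -0.82.

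The remaining HIPK2 sets were weak. 225115_at read 3.74, 3.77 and 3.71 against 3.99, 3.77 and 3.79 (difference -0.11, SE 0.066). Its groups were apart by only 0.0034, and without NC TuD replicate 1 the difference was -0.043. 224065_at read 3.52 on 5 of the 6 arrays and 3.69 on NC TuD replicate 1. 213763_at read 3.33 on 5 arrays and 3.16 on miR-17 TuD replicate 1. The differences of the latter, -0.057 and -0.056, each rest on a single array. By the accession that the platform lists, 224065_at was designed on a GenBank HIPK2 mRNA, and 225368_at, 225097_at, 225116_at, 225115_at and 213763_at on expressed sequence tags.

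Over the 7 measured HIPK2 sets the differences ranged from -0.88 to -0.056, with a mean of -0.39 and a median of -0.45. The 4 sets with levels of 5 or more had 0.18% to 1.76% of all tested probe sets below them in difference. All 7 differences were below 0, as were 48.1% of all tested. In 5 of 7 sets the groups did not overlap with miR-17 TuD lower, against 13.6% of all tested. None had groups apart with miR-17 TuD higher, against 13.7%. In limma 225368_at and 225097_at passed an adjusted p of 0.05, 2 of 7 sets, against 2.48% of all tested that passed in that direction. None passed as higher, against 3.35%. HIPK2 was picked for this pattern, so nothing is read from these shares. The count without overlap was 2 of 7 after quantile normalization or centring of each array on its median. The mean difference was -0.63 over the 4 sets with levels of 5 or more, a restriction chosen after seeing the data.

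HIPK1 was represented by 1 well-detected set. 212293_at read 10.32, 10.27 and 10.25 in the miR-17 TuD arrays and 10.53, 10.52 and 10.47 in the NC TuD arrays, or 10.28 ± 0.038 against 10.51 ± 0.03 (SD, n = 3). The difference was -0.23 (SE 0.027), 1.17-fold lower, and the groups were apart by 0.15. 212291_at read 4.29, 4.29 and 4.28 against 4.32, 4.81 and 4.21, so that its difference of -0.16 (SE 0.17) came with NC TuD replicate 2 alone, and without that array it was 0.022. 1552516_a_at lay close to the lowest value (2.25 to 2.29 on all arrays, difference -0.016). Of the 3 measured HIPK1 sets, 212293_at alone had groups that did not overlap and alone was past the limma threshold, beside 13.6% and 2.48% of all tested, and nothing is read from these counts. The mean over the 3 sets was -0.13, or -0.23 for the set with a level of 5 or more alone. The antisense transcript HIPK1-AS1 was not measurably expressed: 1570080_at stood at 2.12 on every array and 1570082_x_at at 2.24 to 2.33 on all but miR-17 TuD replicate 1, where it was 2.75.

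HIPK3 had a difference below 0 on each of its 3 measured sets. 226297_at read 11.55, 11.58 and 11.41 against 11.83, 11.83 and 11.74, or 11.51 ± 0.092 against 11.80 ± 0.05 (SD, n = 3), a difference of -0.29 (SE 0.056) or 1.22-fold lower. 210148_at read 9.09, 8.99 and 9.14 against 9.40, 9.44 and 9.17 (difference -0.27, SE 0.088). 207764_s_at read 6.83, 6.69 and 7.02 against 7.10, 7.09 and 6.89 (difference -0.18, SE 0.11). The groups were apart by 0.16 and by 0.03 in the first and second of these and overlapped in the third, where miR-17 TuD replicate 3 lay above NC TuD replicate 3. The difference of 207764_s_at was -0.10 without miR-17 TuD replicate 2 and -0.27 without miR-17 TuD replicate 3. That is 2 of 3 sets without overlap, beside 13.6% of all tested with miR-17 TuD lower. Past the limma threshold over all probe sets were 0 of 3, beside 2.48% of all tested as lower. Nothing is read from these counts. The lists and neighbours below are judged over genes, with 1 probe set per gene. In that fit 226297_at stood at adjusted p = 0.0439 and 212293_at of HIPK1 at 0.0148 in limma, where 4.6% of genes were called lower. Nothing is read from these values either.

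**Figure D2:**
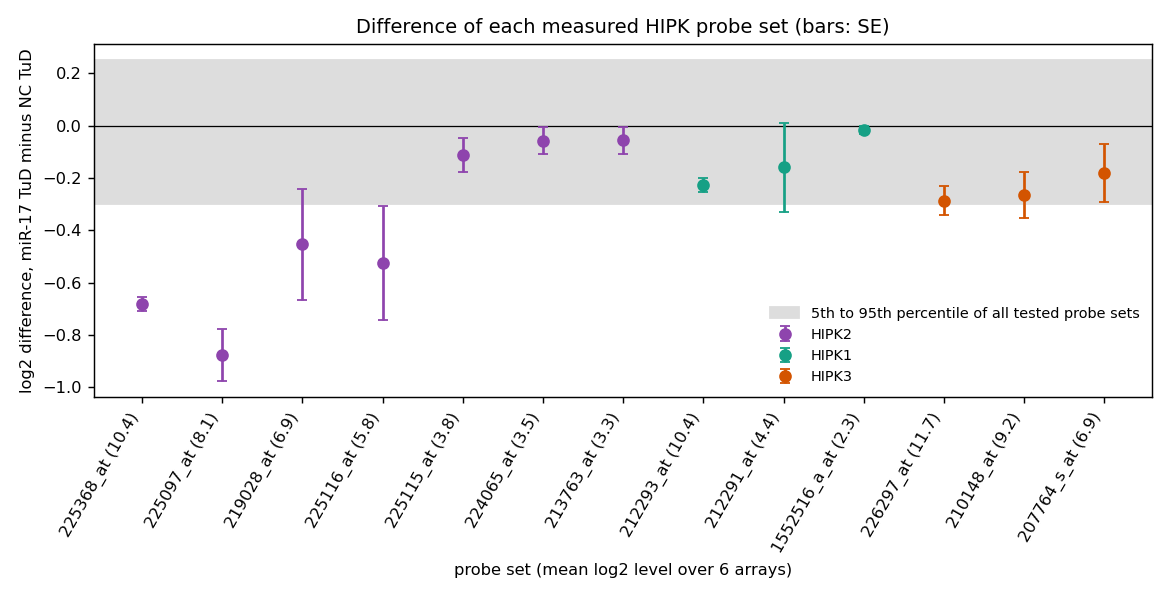
Log2 difference, miR-17 TuD minus NC TuD, of the 13 HIPK probe sets that passed the low-value filter (points, with SE from limma; n = 3 arrays per group). The grey band spans the 5th to 95th percentile of all tested probe sets, -0.30 to 0.25. The 4 HIPK2 sets with levels of 5 or more lie below the band. The weaker HIPK2 sets and all HIPK1 and HIPK3 sets shown lie within it.

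Set side by side over sets with levels of 5 or more, HIPK2 differed by -0.88 to -0.45 on 4 sets, HIPK3 by -0.29 to -0.18 on 3 sets and HIPK1 by -0.23 on 1 set. These ranges did not overlap between HIPK2 and its relatives on all 6 arrays, but without NC TuD replicate 2 they did, with 219028_at of HIPK2 at -0.27 and 226297_at of HIPK3 at -0.27. Whether the genes differ in response was not tested, because they were chosen on these values. All 13 measured sets had a difference below 0, with a median of -0.23. Under the alternatives of normalization, filter and left-out arrays, 10 of the 13 kept a difference below 0 throughout, and the exceptions were 212291_at of HIPK1 without NC TuD replicate 2, 1552516_a_at of HIPK1 with median centring (0.0062), and 224065_at of HIPK2, whose groups were equal without NC TuD replicate 1.

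Within the groups the probe sets of a gene did not vary together closely. Across the 6 arrays the 6 pairs among the 4 better HIPK2 sets correlated at r of 0.68 to 0.97, values that hold the group difference. After each group's mean was subtracted, r ran from -0.40 to 0.54. For the 3 HIPK3 sets r was 0.43 to 0.90 before and -0.41 to 0.88 after, with 210148_at and 207764_s_at closest. The arrays of a group differ from each other by little, so these within-group values rest on small deviations.

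Of 11 kinases listed as relatives of the HIPK family, 10 were measured and 1 was not analysed here. DYRK1A, a kinase that phosphorylates splicing factors and transcription regulators, fell in limma (12.57 ± 0.029 against 12.72 ± 0.043, SD, n = 3, difference -0.15, SE 0.029, adjusted p = 0.0428). It was the 1 of 10 called, against 11.4% of all genes in either direction. DYRK1A no longer passed whichever single array was left out (adjusted p = 0.079 to 0.122). Without s_at and x_at sets its difference was -0.07 (adjusted p = 0.579). That value came from another set, at 2.12 with miR-17 TuD and 2.20 with NC TuD. These levels are next to the lowest value, so the fit says little about DYRK1A. DYRK2, a kinase of the same family as DYRK1A, read 7.91, 7.99 and 7.86 against 7.88, 7.88 and 8.14, overlapping groups (-0.05, adjusted p = 0.767). Without s_at and x_at sets DYRK2 stood at -0.32 (adjusted p = 0.206 in limma). This came from another set, at 7.46 with miR-17 TuD and 7.78 with NC TuD. With averaged probe sets DYRK2 stood at -0.13 (adjusted p = 0.099), so it did not pass in either fit. HIPK4, the family member expressed mainly in testis and brain, read 2.84 to 2.91 on all arrays. The list median was -0.035, beside 0.00056 over all genes.

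Among the 14 genes listed for factors that act on HIPK proteins, 10 were measured, 2 fell (against 4.6% of all genes) and 3 rose (against 6.78%). The other 4 were not analysed here. WSB1, a ubiquitin ligase subunit that targets HIPK2 for degradation, read 12.34, 12.49 and 12.42 against 12.64, 12.73 and 12.64, and fell by 0.26 (SE 0.049, adjusted p = 0.0413 in limma). FBXO3, an F-box protein reported to promote HIPK2 degradation, fell by 0.17 (SE 0.03, adjusted p = 0.0375 in limma). Its groups did not overlap. The other 3 ligases listed did not pass: SIAH1 stood at -0.07 (adjusted p = 0.225), SIAH2 at 0.07 (adjusted p = 0.259) and MDM2 at -0.18 (adjusted p = 0.207). With miR-17 TuD replicate 2 left out, MDM2 passed (adjusted p = 0.0322), as it did with its probe sets averaged (adjusted p = 0.0299). Its adjusted p in limma ranged from 0.0299 to 0.57 over all alternatives. The 0.57 came without s_at and x_at sets, from another set, at 4.36 with miR-17 TuD and 4.35 with NC TuD.

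HMGA1, a chromatin protein that HIPK2 phosphorylates and that can hold HIPK2 in the cytoplasm, read 10.21, 10.28 and 10.26 against 10.00, 10.03 and 9.98. It rose by 0.25 (SE 0.024, adjusted p = 0.0107 in limma), a 1.19-fold change with the groups well apart. ZYX, the focal adhesion protein zyxin, reported to stabilize HIPK2, rose by 0.20 (SE 0.037, adjusted p = 0.0392). CASP6, a caspase that cleaves HIPK2, rose by 0.07 (SE 0.011, adjusted p = 0.0222). DAZAP2, a HIPK2 partner, stood at 0.13 (adjusted p = 0.053) and the SUMO protease SENP1 at 0.11 (adjusted p = 0.348). HMGA1 lost its call without NC TuD replicate 1 (adjusted p = 0.054) and with averaged probe sets (adjusted p = 0.0555), and kept it in the other 5 fits that left out 1 array. WSB1 and ZYX lost theirs in all 6 such fits (adjusted p up to 0.125 and 0.123), and FBXO3 and CASP6 in all but the fit without miR-17 TuD replicate 1 (up to 0.124 and 0.0876). The differences in such fits were -0.29 to -0.22 for WSB1, 0.17 to 0.23 for ZYX, -0.19 to -0.14 for FBXO3 and 0.07 to 0.08 for CASP6. With probe sets averaged per gene the differences were -0.0097 for FBXO3, 0.027 for CASP6 and 0.14 for HMGA1, so these 3 rest on the set read for the gene.

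Of 29 substrates and nuclear partners listed, 24 were measured, 2 fell (against 4.6% of all genes) and none rose (against 6.78%), with a list median of -0.0021. The other 5 were not analysed here. MDM4, a partner of MDM2, read 10.26, 10.45 and 10.40 against 10.69, 10.74 and 10.67. It fell by 0.33 (SE 0.057, adjusted p = 0.0333 in limma), and the groups did not overlap. MYB, a transcription factor bound by HIPK1 and phosphorylated by HIPK2, read 10.17, 10.18 and 10.19 against 10.51, 10.38 and 10.36, and fell by 0.23 (SE 0.044, adjusted p = 0.0401). In the fits that left out 1 array MDM4 kept its call only without miR-17 TuD replicate 1 (adjusted p up to 0.119) and MYB only without NC TuD replicate 1 (up to 0.111). The differences there were -0.37 to -0.27 for MDM4 and -0.26 to -0.19 for MYB.

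The best known HIPK partners did not pass. The corepressor CTBP1 read 13.78, 13.80 and 13.84 against 13.81, 13.82 and 13.78, and DAXX, a death domain-associated nuclear protein, 11.05, 11.04 and 11.09 against 11.09, 11.03 and 11.08. These groups lay on top of each other, and the sign of both small differences changed between settings. PML, which forms the nuclear bodies that recruit HIPK2, read 7.84 to 7.90 in the miR-17 TuD arrays and 7.87 in all NC TuD arrays. This holds for the set read, an x_at set that may also match other transcripts. Without s_at and x_at sets PML stood at 0.27 (adjusted p = 0.295 in limma). With averaged probe sets it stood at 0.077 (adjusted p = 0.128), so it did not pass in either fit. The acetyltransferase CREBBP stood at -0.06 (adjusted p = 0.539). AXIN1, the Wnt pathway scaffold that binds HIPK2, stood at 0.29 (SE 0.19, adjusted p = 0.393), with miR-17 TuD replicate 3 at 6.84 and every other array at 6.11 to 6.32. ZBTB4, a repressor whose degradation HIPK2 promotes, stood at 0.22 with the groups apart and did not pass (adjusted p = 0.134 in limma), although it did with miR-17 TuD replicate 1 left out (adjusted p = 0.0264) and after median centring (adjusted p = 0.0491).

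**Figure D3:**
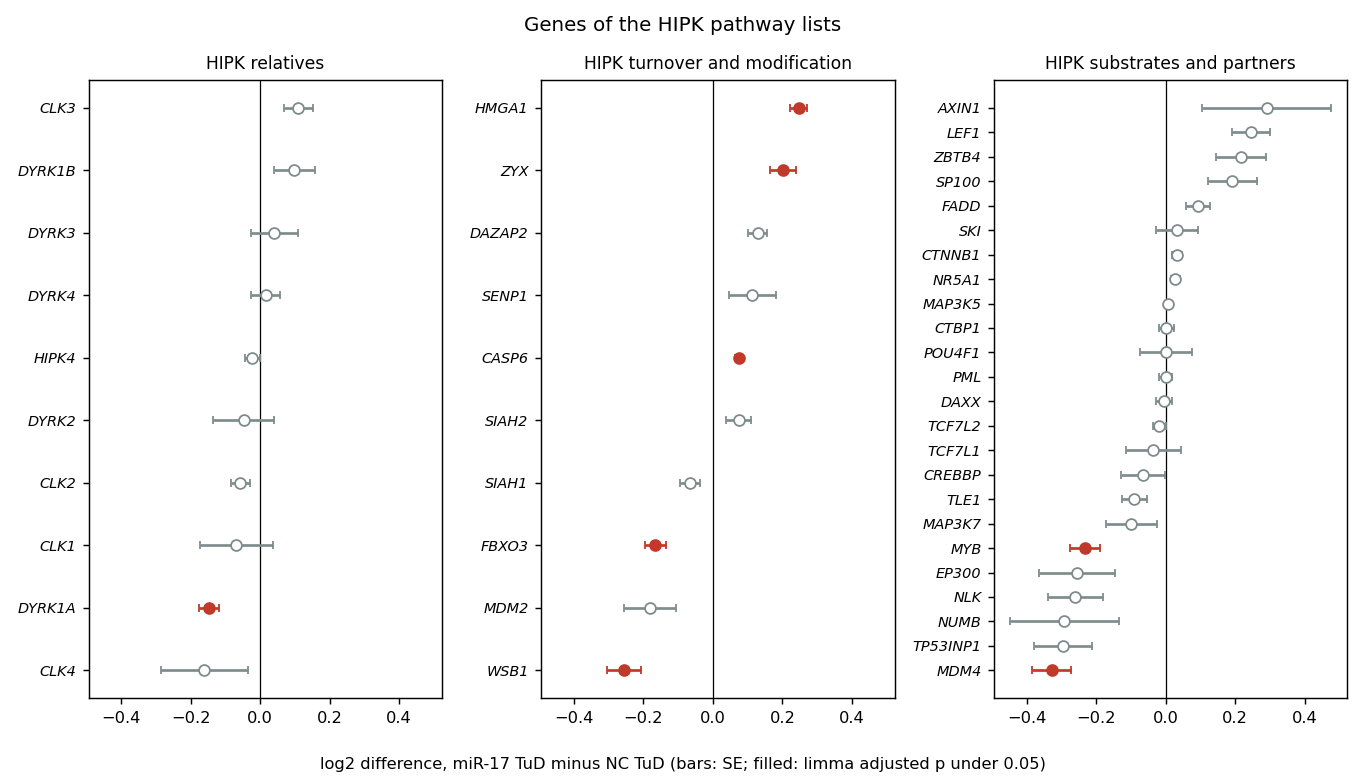
Log2 difference, miR-17 TuD minus NC TuD, with SE (bars), of the 44 measured genes on 3 lists: kinases related to the HIPK family, factors that act on HIPK proteins, and substrates and partners (n = 3 arrays per group). Filled red points passed an adjusted p of 0.05 in limma over all genes: 1 of 10, 5 of 10 and 2 of 24, beside 11.4% of all genes.

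Of the 8 list genes that passed over 13949 genes, 3 (CASP6, HMGA1 and MDM4) also passed when the same probe sets were adjusted over all 32768 probe sets. The other 5 stood at adjusted p = 0.0536 to 0.0607 in limma there. Over all alternatives run, the adjusted p in limma ranged from 0.0047 to 0.0555 for HMGA1, 0.012 to 0.119 for MDM4, 0.0208 to 0.111 for MYB, 0.0225 to 0.123 for ZYX and 0.0192 to 0.181 for WSB1. It ranged from 0.0211 to 0.315 for CASP6, 0.031 to 0.579 for DYRK1A and 0.0233 to 0.946 for FBXO3. The 0.579 of DYRK1A came from the set next to the lowest value. The differences of the 8 genes were 0.07 to 0.33 in size on the probe set read for each. Other sets of MDM4 and WSB1 reached -0.48.

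Genes next to the HIPK loci were read for comparison, by RefSeq gene order (GRCh38.p14). HIPK2 lies on chromosome 7, and its nearest measured neighbours were FMC1 and KLRG2 before it and TBXAS1 and PARP12 after it. FMC1, a mitochondrial assembly factor, read 10.40, 10.28 and 10.35 against 10.20, 10.10 and 10.20, higher in all miR-17 TuD arrays (0.18, SE 0.045, adjusted p = 0.0812 in limma). PARP12, an ADP-ribosyltransferase, read 9.64, 9.62 and 9.81 against 9.79, 9.59 and 9.61, with overlapping groups (0.02, adjusted p = 0.895). KLRG2 (3.47 to 3.49) and TBXAS1 (2.83 on every array) were too weak to inform. None of the 4 passed in limma. FMC1 passed with the 60th percentile filter (adjusted p = 0.0496) and with the replicate number as a block (adjusted p = 0.048).

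HIPK1 lies on chromosome 1 beside DCLRE1B (0.07, adjusted p = 0.727) and OLFML3 (-0.10, adjusted p = 0.493), with AP4B1 (0.21, adjusted p = 0.103) and TRIM33 (-0.21, adjusted p = 0.126) next. AP4B1 was higher and TRIM33 lower in all miR-17 TuD arrays, and only AP4B1 passed in any alternative, median centring (adjusted p = 0.0389). HIPK3 lies on chromosome 11 beside CSTF3 (-0.07, adjusted p = 0.349), TCP11L1 (0.08, adjusted p = 0.459) and CD59 (-0.05, adjusted p = 0.192, and 0.0368 without miR-17 TuD replicate 3). The next measured gene, FBXO3, was the only neighbour of the 12 that passed, and it is the same FBXO3 that stands among the HIPK turnover factors.

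**Figure D4:**
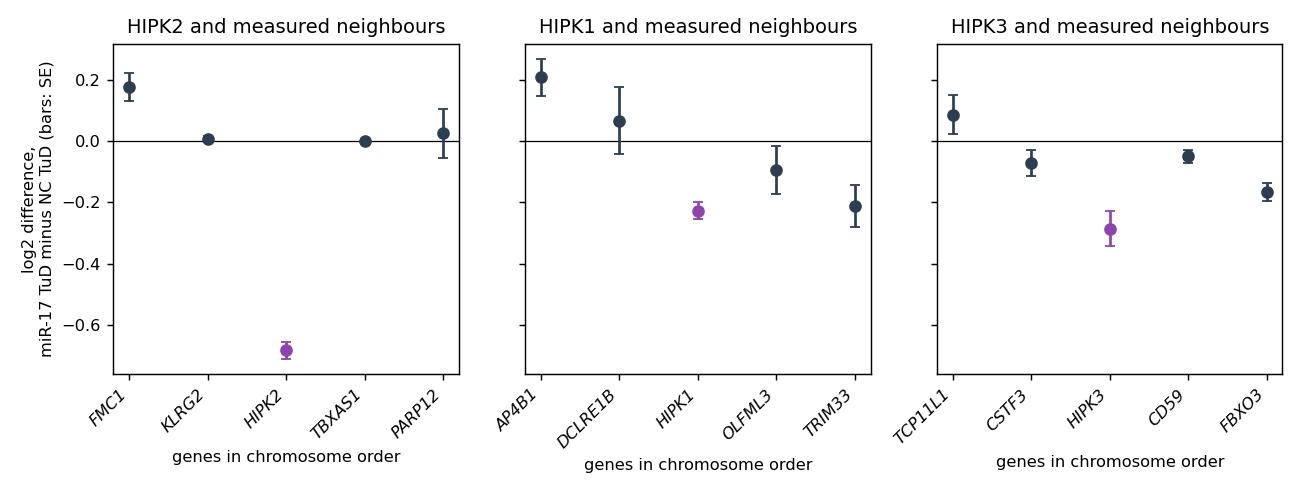
Log2 difference, miR-17 TuD minus NC TuD, with SE (bars), of each HIPK gene (purple, its most strongly detected probe set) and the nearest measured protein-coding genes on either side in chromosome order (dark blue; n = 3 arrays per group). HIPK2 stands at -0.68 between neighbours at 0.00 to 0.18.

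The genes whose profile over the 6 arrays was most like that of HIPK2 (the mean of its 7 measured sets, each centred) were BACH2, NFYA, AK4, NAB1 and PEG3, at Pearson r of 0.995 to 0.998 among 13236 genes with a variable level. BACH2, a transcription repressor of lymphocytes, read 6.60, 6.68 and 6.64 against 7.03, 7.24 and 7.07. NFYA, a subunit of the CCAAT-binding factor, read 11.44, 11.46 and 11.44 against 11.69, 11.77 and 11.69. PEG3, an imprinted zinc finger gene, read 5.83, 5.88 and 5.86 against 6.64, 6.84 and 6.60, the largest difference of the 5 at -0.84. AK4, a mitochondrial adenylate kinase, differed by -0.12 and NAB1, a corepressor of EGR factors, by -0.29. All 5 were lower in every miR-17 TuD array and highest in NC TuD replicate 2, as was the HIPK2 mean. A likeness over 6 arrays in 2 groups includes the group difference. With each group's mean subtracted, r was 0.94 to 0.989 for these 5 genes, which were picked for their likeness. It was 0.0319 for HIPK1 and 0.207 for HIPK3. These values hold for the HIPK2 mean, which joins sets that did not vary together closely within groups. The HIPK2 set 225368_at alone had within-group r of 0.61 with 212293_at of HIPK1 and 0.50 with 226297_at of HIPK3. For 225097_at these were 0.21 and -0.41. By r over the 6 arrays with no mean subtracted, HIPK1 ranked at place 385 (r = 0.939) and HIPK3 at 633 (r = 0.91).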

How the data were processed

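Values are the authors' deposited log2 expression, 1 per probe set and array. RMA and GCRMA are named, per the submitters' processing notes, with no version or role. No genome build was needed for the probe sets. The values floor at 2.12, which compresses changes of weak genes. Values were used as deposited. The 62 control probe sets were left out. GEO's platform annotation gave 1 symbol for 41091 probe sets, several for 1801 (not named) and none for 11721, and 41037 matched RefSeq by Entrez ID and were updated.

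The fits used limma (version 3.58.1, R 4.3.3; lmFit and eBayes, 2-sided, Benjamini-Hochberg over all probe sets or genes, threshold 0.05). Each gene was read from its probe set with the highest mean. Prior degrees of freedom were 0.63 for probe sets and 0.72 for genes. The fit was tested on simulated data. The number of arrays limits the precision.

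The members, lists and tests were chosen with earlier results of these data known. The rule for named genes took all HIPK sets and HIPK4, up to 4 called genes per list and direction, 13 fixed pathway genes, 2 measured neighbours per side and the 5 genes most like HIPK2. DAZAP2, SENP1 and HIPK1-AS1 fall outside it and were named after their values were seen. List genes that were not analysed are not named here. Alternatives changed normalization, filter, probe sets, variance model, block and arrays. Deviations of same-numbered arrays from their group means correlated at 0.04, 0.10 and 0.11, so the numbers were not taken to pair samples.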

Additional observations from a re-analysis of the deposited data

How the results depend on the processing

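HIPK3's mean difference moved by less than the spread between replicates under every alternative run. The HIPK2 mean was -0.28 with no filter and -0.63 with the 60th percentile filter or with sets of level 5 or more, and HIPK1's was -0.23 with either of the latter. The HIPK2 count below 0 was 4 of 4 with the 60th percentile filter. Leaving out 1 array gave -0.42 to -0.34 for HIPK2, -0.17 to -0.07 for HIPK1 and -0.30 to -0.21 for HIPK3, with 6 to 7 HIPK2 sets below 0.

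Probe sets called in limma, 1910 in the reported fit, numbered 2930 with median centring, 554 with no filter, 3271 with the 60th percentile filter, 642 without s_at and x_at sets, and 148 to 1157 with 1 array left out. Genes called, 1588 in the reported fit, numbered 789 with no filter, 815 without s_at and x_at sets and 375 to 1249 with 1 array left out. With the replicate block 0 probe sets (7488 at unadjusted p under 0.05) and 822 genes passed in limma, and of the lists 0 relatives, 2 turnover genes and 0 substrates. The same replicate number is not shown to pair samples, and the cause was not tested.

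The relatives count was 0 with median centring, no filter, without s_at and x_at sets and in all fits with 1 array left out (1 to 3 at unadjusted p under 0.05). The turnover count was 2 with no filter, 0 without s_at and x_at sets, 2 with averaged probe sets and 0 to 3 with 1 array left out. The substrate count was 5 with median centring (2 higher, 3 lower), 0 with no filter, 4 with the 60th percentile filter, 1 without s_at and x_at sets and 0 to 3 with 1 array left out. Where these counts were 0, 2 to 6 turnover genes and 4 to 10 substrates had an unadjusted p under 0.05.

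Among the named list genes and neighbours, signs changed only for those short of the threshold in limma. CTBP1 was -0.0031 with array weights, -0.018 with averaged sets and -0.017 to 0.016 with 1 array left out. DAXX was 0.018 with median centring, 0.018 with averaged sets and -0.023 to 0.0067 with 1 array left out. PARP12 was -0.00897 with array weights and -0.035 to 0.086 with 1 array left out, DCLRE1B -0.025 to 0.17 and DYRK2 -0.093 to 0.0399. AP4B1 was -0.013 and MDM2 0.0085 without s_at and x_at sets, and CSTF3 0.035 with averaged sets. The MDM2 value came from another set, at 4.36 with miR-17 TuD and 4.35 with NC TuD. Causes were not tested. A fall cannot be seen in the HIPK sets that stood at the lowest value on every array.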
